A study of Equus caballus with 45 samples.

Results

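The genes described here are 38 of the 20881 protein-coding genes counted in equine bone marrow mesenchymal stromal cells (MSC) and in 3 kinds of joint cell. They are the genes of glycolysis, of lactate and pyruvate handling, and of the response to low oxygen. The genes were taken by symbol, from a list drawn up with earlier results of these data known, and all 38 were listed in both count tables and passed the filter on low counts in every comparison. By role they comprise 3 carriers of glucose and lactate, 11 genes of upper glycolysis, 6 of lower glycolysis, 3 that decide the fate of pyruvate, 3 subunits of the hypoxia inducible factors (HIF), 3 oxygen-dependent HIF hydroxylases and histone demethylases, and 9 other genes known to be induced by hypoxia.

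Glycolysis splits glucose into pyruvate and yields ATP without oxygen, and lactate dehydrogenase returns pyruvate to lactate, which leaves the cell through monocarboxylate carriers. When oxygen is plentiful, prolyl hydroxylases mark the HIF alpha subunits for degradation, and when it is scarce the stabilised subunits pair with ARNT and raise transcription of many glycolytic genes. Articular cartilage has no blood vessels, its cells live at low oxygen and depend largely on glycolysis, and inflammatory signals are also known to raise glucose uptake in synovial and immune cells.

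Bulk polyA RNA was sequenced from 45 cultures. MSC at low passage came from healthy horses 3 to 4 years of age, and MSC libraries of the donors labelled PC, 99 and 92 were made untreated, after poly I:C (a TLR3 agonist, here TLR), after 2′3′-cGAMP (a STING agonist, here STING) and after CpG, with n = 3 for each of these 4 groups. The joint cells were synoviocytes and chondrocytes from the femoropatellar joint and macrophages grown from blood monocytes with M-CSF. All joint cells given MSC conditioned medium (CM) had first received IL-1β and TNF-α for 2 h, were then exposed to CM of resting, TLR or STING activated MSC for 24 h and were kept for another 24 h after washing. The CM came from the donors PC, ORC and AG1, so each joint cell type had 3 libraries for each of the 3 CM groups, 1 library with cytokines alone and 1 with no addition.

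Per the study's overview, the 3 joint cell types were taken from 1 healthy horse. Replicates of a joint cell group therefore differ in the MSC donor of the medium and not in the joint cells, and p-values measure the spread between these cultures only. Differences between cell types cover 1 animal, and cell type and culture medium cannot be told apart, since macrophages, for example, were grown in medium with low glucose. The labels also give macrophages a lower cytokine dose than synoviocytes and state none for chondrocytes given cytokines, whereas the methods give 1 dose. Labelled dose and cell type cannot be told apart either. The titles of the libraries with cytokines alone or no addition name an MSC donor (ORC, or PC for 1 synoviocyte library), although these cells received no MSC-CM, and they were treated here as having no donor.

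Libraries held 23525704 to 54103873 counts, and a floor of 3 counts corresponded to 0.0562 to 0.127 CPM (counts scaled to the library total). Macrophage markers summed to 8628 to 13179 CPM in the macrophage libraries against at most 38.7 CPM in the other joint cells. The chondrocyte libraries had ACAN (aggrecan) at 6.07 to 97.2 CPM, against 0.467 to 3.53 CPM in synoviocytes, but COL2A1, the collagen that defines cartilage, did not exceed 0.383 CPM in them, and HAPLN1 and CNMD were near 0 as well. The cells labelled chondrocytes thus lacked several defining markers after culture. The summed values of the 13 chondrocyte markers overlapped, at 160 to 738 CPM in chondrocytes and 149 to 345 CPM in synoviocytes. The 13 mitochondrially encoded genes of the table were listed at 0 in all libraries, and are not compared here.

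Macrophages carried the least glycolytic and hypoxia RNA among the joint cells, and chondrocytes carried more than synoviocytes in the libraries given cytokines but not in those without addition (2.25 and 2.30% of counts). The 38 genes together took 1.09 to 1.27% of the counts in macrophages, 2.30 to 2.76% in synoviocytes and 2.25 to 3.64% in chondrocytes, and 1.79 to 2.80% in MSC. The macrophage range did not overlap any other, while those of synoviocytes and chondrocytes did. These values are shares of each library's counts, which do not give the RNA per cell or the mix of cells in a culture.

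**Figure D1:**
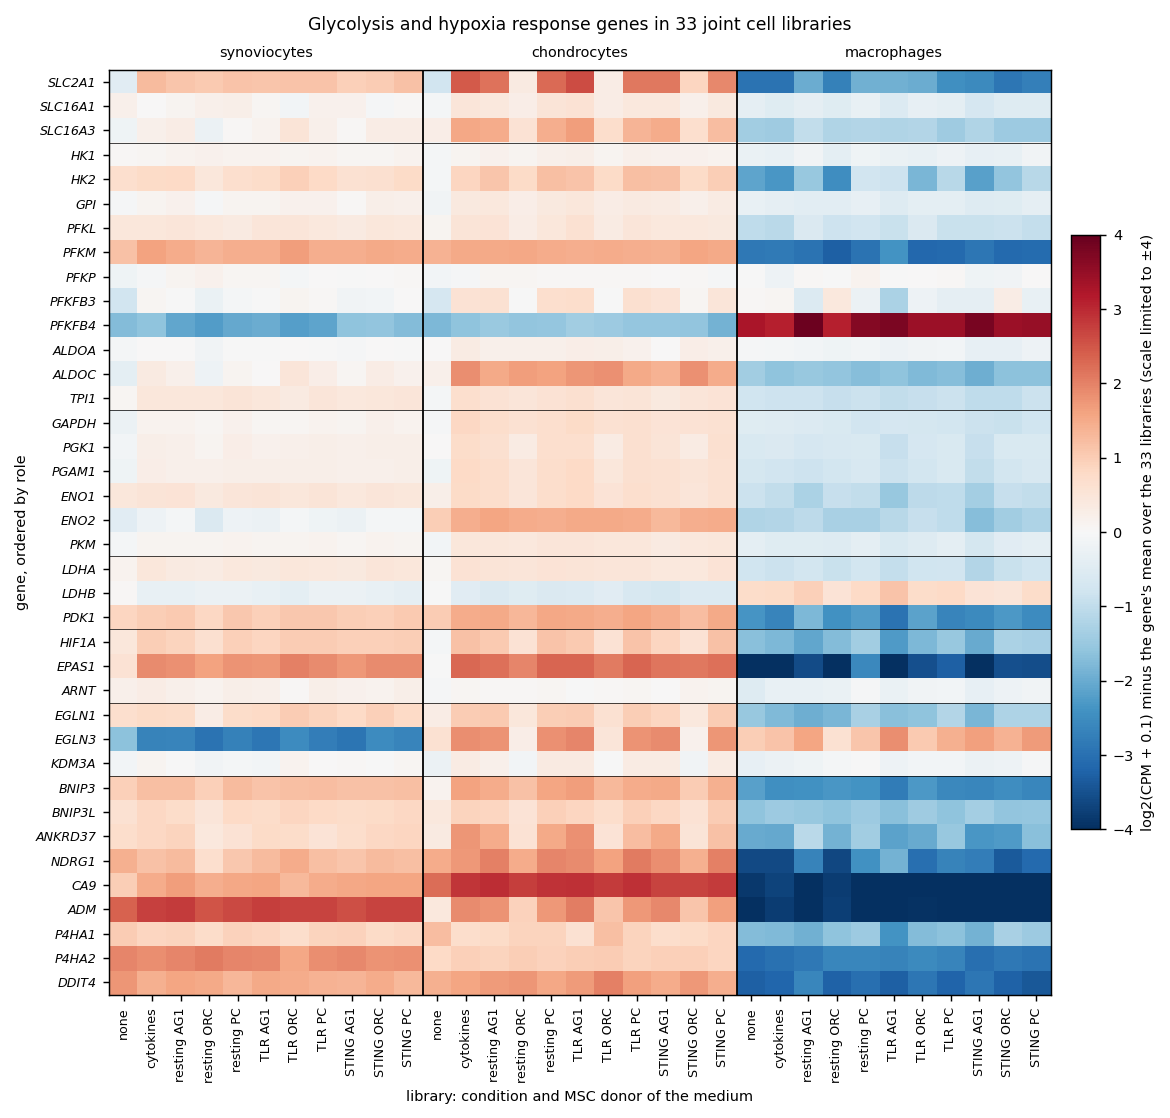
Heat map of the 38 genes (rows, by role) in the 33 joint cell libraries (columns, by cell type, condition and MSC donor of the medium); colour is log2(CPM + 0.1) minus the gene's mean over the libraries. Most genes are low across the macrophage columns, where PFKFB4 and LDHB are high, and the chondrocyte columns with CM of donor ORC are paler than their neighbours for genes such as SLC2A1 and EGLN3.

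The cell types were first compared with resting MSC-CM (n = 3 libraries each), by edgeR's quasi-likelihood test and Benjamini-Hochberg adjustment over 15599 genes. In macrophages against synoviocytes, 34 of the 38 genes were called, 3 higher and 31 lower. The background was large, since 71.5% of all genes tested were called in this comparison, 36.5% higher and 35.1% lower. The median log2 difference was -1.27 over the 38 genes and 0.04 over all genes. Against chondrocytes 34 genes were also called, 2 higher and 32 lower, where 71.4% of all genes were called (36.6% higher and 34.8% lower), and the median was -2.01 against 0.04 over all genes. The share of genes that differed was thus above the background, and nearly all of it lay in the lower direction.

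Among the carriers, SLC2A1 (GLUT1, the basal glucose transporter) was measured with resting MSC-CM of donors AG1, ORC and PC at 127, 77.6 and 133 CPM in macrophages and at 1099, 1044 and 1105 CPM in synoviocytes. The groups did not overlap, and the log2 difference was -3.27 ± 0.46 (SE, adjusted p = 0.000164). The lactate carriers SLC16A3 (MCT4, known for lactate export) and SLC16A1 (MCT1) were lower in macrophages by less, at log2 differences of -1.19 ± 0.23 (adjusted p = 0.000839) and -0.56 ± 0.10 (adjusted p = 0.00032). All 3 carriers were thus lower in macrophages than in synoviocytes, and all 3 were lower than in chondrocytes too.

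Of the 11 genes of upper glycolysis, 7 were lower in macrophages than in synoviocytes, 1 was higher and 3 were not called. The gene that was higher was PFKFB4, a bifunctional enzyme that sets the level of fructose 2,6-bisphosphate, the activator of phosphofructokinase. PFKFB4 stood at 148, 84.9 and 125 CPM in macrophages with resting MSC-CM of donors AG1, ORC and PC, and at 2.25, 1.97 and 2.25 CPM in synoviocytes. The groups lay far apart (log2 5.78 ± 0.21, adjusted p = 1.36e-09), and PFKFB4 was 36.2-fold above chondrocytes (adjusted p = 2.08e-09). The macrophages without any addition held 95.2 CPM and those with cytokines alone 84.9 CPM, so the high level was present without medium or cytokines, whereas no synoviocyte or chondrocyte library exceeded 3.66 CPM. Its paralogue PFKFB3, whose kinase activity is known to prevail, was not called (log2 0.04 ± 0.25, adjusted p = 0.892).

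PFKM, the phosphofructokinase known from muscle, showed the opposite: 2.62, 2.08 and 2.61 CPM in macrophages against 58.8, 53.9 and 57.7 CPM in synoviocytes, in the order of donors above (log2 -4.53 ± 0.12, adjusted p = 1.16e-10). PFKL, the liver isozyme, was also lower (log2 -1.14 ± 0.11, adjusted p = 2.71e-06). PFKP, the platelet isozyme, stood at a mean of 333 CPM in macrophages and 346 CPM in synoviocytes and was not called (adjusted p = 0.535). The 3 phosphofructokinase genes therefore did not differ together. ALDOC and TPI1 were lower, ALDOA was not called against synoviocytes (log2 -0.10 ± 0.11, adjusted p = 0.456), and HK2, the hexokinase induced by hypoxia, was at 14.2 to 47.7 CPM in macrophages against 110 to 140 CPM.

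All 6 genes of lower glycolysis were lower in macrophages than in both other joint cells. ENO1 (enolase 1) had means of 1754 CPM in macrophages and 5046 CPM in synoviocytes (log2 -1.53 ± 0.15, adjusted p = 3.43e-06). GAPDH differed by log2 -0.77 ± 0.11 (adjusted p = 9.26e-05) and PKM (pyruvate kinase) by -0.58 ± 0.12 (adjusted p = 0.00112). These differences were smaller in size than those of SLC2A1 and PFKM, while that of SLC16A1 was of the size of PKM.

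At the branch of pyruvate, LDHA, the subunit favoured in lactate production, was lower in macrophages (1111, 992 and 1115 CPM for donors AG1, ORC and PC) than in synoviocytes (2371, 2298 and 2490 CPM), with a log2 difference of -1.16 ± 0.12 (adjusted p = 4.55e-06). LDHB, the subunit favoured in tissues that oxidise lactate, went the other way, at 421, 317 and 374 CPM against 175, 184 and 185 CPM (log2 1.03 ± 0.11, adjusted p = 7.98e-06). LDHB was also 2.51-fold higher in macrophages than in chondrocytes (adjusted p = 1e-06). PDK1, which inactivates pyruvate dehydrogenase, was lower by log2 -3.13 ± 0.16 (means of 17.0 and 148 CPM, adjusted p = 1.57e-08).

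The HIF machinery was lower in macrophages as well. HIF1A had 235, 300 and 379 CPM in macrophages and 1869, 1562 and 1956 CPM in synoviocytes (log2 -2.57 ± 0.21, adjusted p = 7.89e-07). EPAS1, which encodes HIF-2 alpha, had 24.3, 18.1 and 48.1 CPM against 1016, 883 and 1007 CPM (log2 -5.01 ± 0.35, adjusted p = 5.59e-07). ARNT, the common partner, differed least of the 3 subunits, at log2 -0.40 ± 0.09 (adjusted p = 0.00244).

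The prolyl hydroxylases did not follow each other. EGLN1 (PHD2), the main HIF hydroxylase, was lower in macrophages (log2 -2.28 ± 0.22, adjusted p = 5.05e-06), while EGLN3 (PHD3), itself a HIF target, was higher at 89.9, 45.9 and 64.5 CPM against 4.73, 3.73 and 4.47 CPM (log2 3.95 ± 0.46, adjusted p = 5.26e-05). EGLN3 did not differ between macrophages and chondrocytes beyond the spread (log2 -0.29 ± 0.39, adjusted p = 0.527). KDM3A, a histone demethylase, was not called in either comparison.

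All 9 other hypoxia-induced genes were lower in macrophages than in synoviocytes and in chondrocytes, with a median log2 difference of -3.86 against synoviocytes. ADM (adrenomedullin, a vasoactive peptide) had means of 2.76 and 315 CPM (log2 -6.87 ± 0.32, adjusted p = 3.03e-08), and CA9 (carbonic anhydrase 9, which regulates pH outside the cell) had 2.37 and 139 CPM (log2 -5.92 ± 0.21, adjusted p = 1.2e-09). P4HA2 and P4HA1, the prolyl 4-hydroxylases of collagen synthesis, differed by log2 -4.70 ± 0.12 and -2.51 ± 0.13 (adjusted p = 1.27e-10 and 2.06e-08). The mitophagy receptors BNIP3 and BNIP3L, the mTOR inhibitor gene DDIT4, NDRG1 and ANKRD37 were lower by between -2.09 and -4.43 on the log2 scale. These genes include collagen hydroxylases, and the stromal markers summed to 7805 to 11596 CPM in macrophages against 121632 to 159906 CPM in synoviocytes, a difference whose part in the result was not tested.

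**Figure D2:**
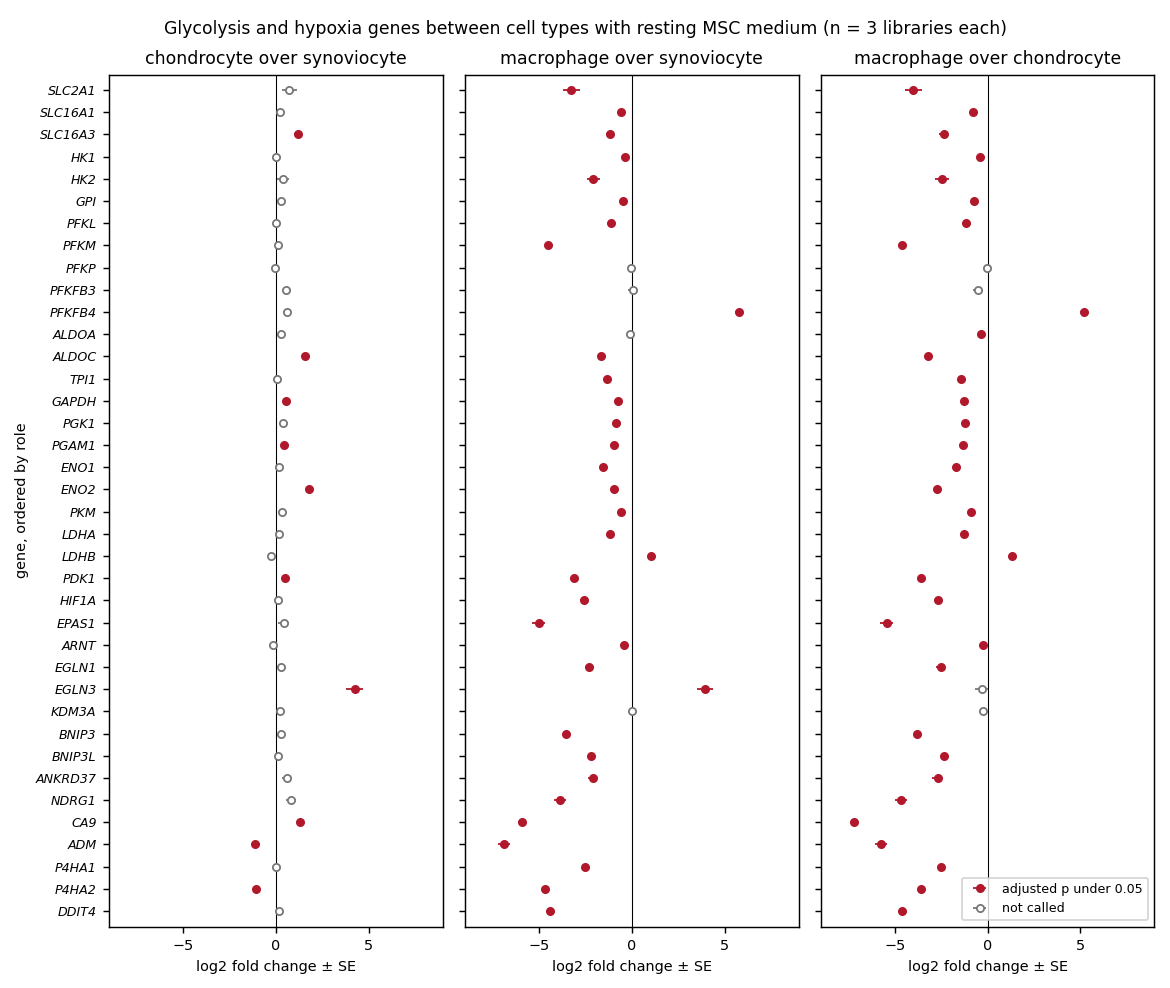
Log2 fold change (horizontal axis, with bars of 1 SE) of each of the 38 genes (vertical axis, by role) in 3 comparisons of joint cells with resting MSC-CM, n = 3 libraries each; filled points have an adjusted p under 0.05. In both macrophage panels most points lie left of 0 while PFKFB4 lies above 5, and in the panel of chondrocytes over synoviocytes the largest value is EGLN3 at 4.23.

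Chondrocytes and synoviocytes were much closer to each other. Of the 38 genes, 10 were called, 8 higher and 2 lower in chondrocytes, where 18.1% of all genes were called (8.31% higher and 9.76% lower). The median log2 difference was 0.26 over the 38 genes and 0 over all genes, and 32 of 38 were above 0. With DESeq2 16 of the 38 were called (22.3% of all genes), with MSC donor as a block 13 (19.3%), and by edgeR 16 without the chondrocyte library that received CM of donor ORC, which is described further down.

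The gene with the largest difference was EGLN3, at 104, 35.6 and 106 CPM in chondrocytes with resting MSC-CM of donors AG1, ORC and PC and 4.73, 3.73 and 4.47 CPM in synoviocytes, an 18.8-fold difference (log2 4.23 ± 0.46, adjusted p = 0.00039). Every chondrocyte library was above every synoviocyte library, also without addition, where the values were 45.6 and 9.47 CPM. The other 2 genes of its class, EGLN1 and KDM3A, were not called.

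The other genes that were higher in chondrocytes came from several steps. ENO2, the enolase known from neurons, was at 285, 269 and 264 CPM against 91.0, 64.3 and 82.0 CPM (log2 1.78 ± 0.13, adjusted p = 8.4e-06). ALDOC, the brain aldolase, was at 115, 127 and 122 CPM against 45.9, 34.9 and 43.6 CPM (log2 1.54 ± 0.12, adjusted p = 8.85e-06). For both isozymes the values of the groups lay far apart, while the main isozymes ENO1 and ALDOA were not called (adjusted p = 0.507 and 0.179). CA9 (log2 1.30 ± 0.17, adjusted p = 0.000386), SLC16A3 (1.17 ± 0.23, adjusted p = 0.00553) and GAPDH (0.52 ± 0.11, adjusted p = 0.00867) were higher in chondrocytes too. PGAM1 (0.40 ± 0.11, adjusted p = 0.029) and PDK1 (0.47 ± 0.15, adjusted p = 0.0463) were called as well, but each lost its call when some single libraries were left out. All libraries compared here had received cytokines. The 1 chondrocyte library without addition had ENO2 at 190, ALDOC at 45.7, CA9 at 223, SLC16A3 at 226 and GAPDH at 1149 CPM. Whether these genes differ between the cell types without cytokines was not tested.

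The genes that were lower in chondrocytes were P4HA2, with means of 347 and 730 CPM (log2 -1.08 ± 0.11, adjusted p = 5.47e-05), and ADM, with 145 and 315 CPM (log2 -1.13 ± 0.24, adjusted p = 0.0106). SLC2A1 had a higher mean in chondrocytes, 1794 against 1083 CPM, but the chondrocyte values were 2283, 647 and 2452 CPM, the groups overlapped, and the difference was not called (log2 0.72 ± 0.42, adjusted p = 0.293). No HIF subunit was called between chondrocytes and synoviocytes.

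Pairs of genes that encode alternative forms of the same protein were also compared as ratios of counts within a library, which do not depend on the scaling of libraries. Such ratios are not per length, so only their differences between cell types are read. There were 8 pairs and 24 comparisons of cell types with resting MSC-CM, and the groups did not overlap in 22. With 3 libraries against 3 the smallest possible two-sided exact permutation p is 0.1, which these comparisons reached (0.109 after Benjamini-Hochberg adjustment over the 24), so none could pass a threshold of 0.05.

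The balance of LDHA to LDHB was log2 1.54 ± 0.13 (SD, n = 3) in macrophages, 3.72 ± 0.06 in synoviocytes and 4.15 ± 0.08 in chondrocytes. EPAS1 to HIF1A stood at -3.44 ± 0.55, -0.89 ± 0.07 and -0.55 ± 0.13 in the same order. The ratio of PFKP to PFKM was 7.10 ± 0.14 in macrophages and 2.61 ± 0.11 in synoviocytes. Macrophages thus had a composition of these pairs that was separate from both other joint cells, with relatively more LDHB, HIF1A and PFKP. Chondrocytes were separate from synoviocytes for ALDOC to ALDOA (-4.19 ± 0.07 against -5.49 ± 0.14) and ENO2 to ENO1 (-4.38 ± 0.13 against -6.01 ± 0.18), whereas HK2 to HK1 and PFKP to PFKL overlapped between these 2 cell types (exact permutation p = 0.2 and 0.6). All these joint cells had received cytokines. In the 1 chondrocyte library without addition ALDOC was at 45.7 CPM and ALDOA at 1951.5 CPM, against means of 121 and 2200 CPM with resting MSC-CM. Whether the balance of ALDOC to ALDOA differs between the cell types without cytokines was not tested. Untreated MSC, measured in a separate table, had an LDHA to LDHB ratio of 2.44 ± 0.59.

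**Figure D3:**
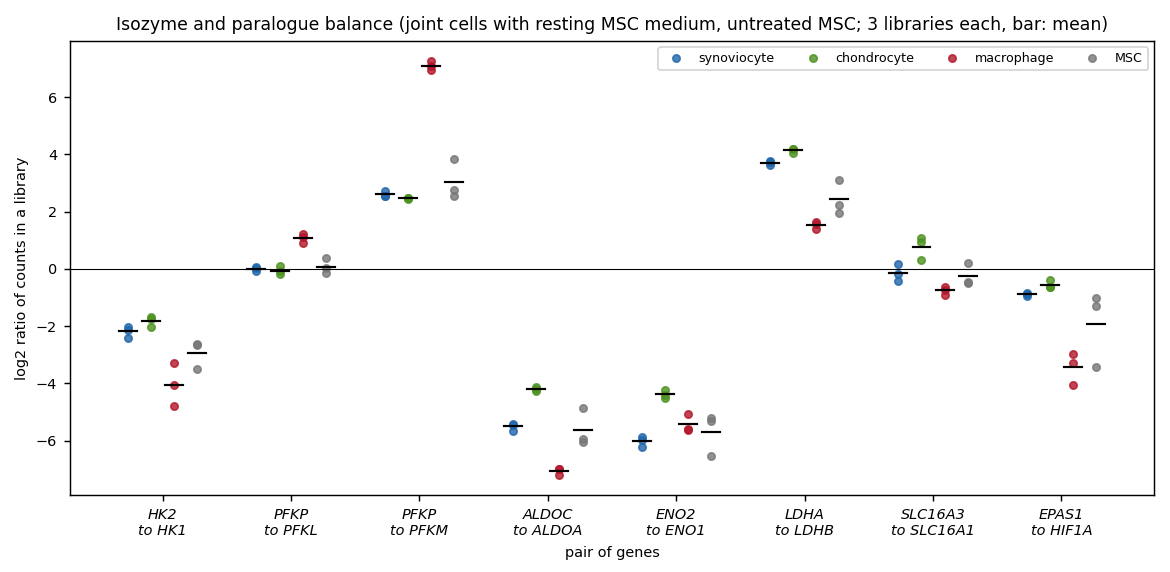
Log2 ratio of counts (vertical axis) of 8 pairs of genes (horizontal axis) in joint cells with resting MSC-CM and in untreated MSC; each point is 1 library, n = 3 for each cell type, and the bar is the mean. Macrophages lie apart from synoviocytes and chondrocytes for PFKP to PFKM, at 7.10 against 2.61 and 2.47, and for LDHA to LDHB.

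Neighbouring pathways are listed here by counts of called genes for macrophages against synoviocytes, where 36.5% of all genes were called higher and 35.1% lower. Of 28 other genes of glycolysis and pyruvate metabolism that were tested, 13 were higher and 8 lower, among them TIGAR (log2 2.14 ± 0.13) higher and PDK2 (-2.49 ± 0.11) lower. Of 7 genes of the pentose phosphate pathway, which makes NADPH and ribose, 6 were higher and 1 was lower. RPIA was higher by log2 1.85 ± 0.12 (adjusted p = 1.08e-07), and H6PD, an enzyme of the endoplasmic reticulum, was the gene that was lower (log2 -0.73 ± 0.12, adjusted p = 0.00018). Of 38 further genes of the hypoxia response, 10 were higher and 21 lower, the latter including VEGFA, the vascular growth factor (means of 9.64 and 441 CPM, log2 -5.52 ± 0.19).

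Between chondrocytes and synoviocytes, 5 of the 28 other glycolysis genes, none of the 7 pentose phosphate genes (1 at an unadjusted p under 0.05 and 1 with DESeq2), 2 of 8 glycogen genes and 10 of 38 further hypoxia genes were called, where 18.1% of all genes were. The glycogen branching enzyme gene GBE1 was higher in chondrocytes, with means of 145 and 32.1 CPM (log2 2.16 ± 0.15, adjusted p = 6.77e-06). VEGFA was higher as well, at 825 against 441 CPM (log2 0.90 ± 0.16, adjusted p = 0.00271), as was STC1 (stanniocalcin 1), at 287 against 8.99 CPM (log2 4.99 ± 0.85, adjusted p = 0.0046).

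The response to IL-1β and TNF-α could be seen only as single libraries, with 1 library for cytokines alone and 1 without addition in each cell type, so the folds have no replicate check. In chondrocytes 10 of the 38 genes were at least 2-fold higher with cytokines and 0 were at least 2-fold lower, where 4.77% of all genes with at least 100 counts were that much higher and 4.49% lower. The median log2 change was 0.57 over the 38 genes, 36 of which were above 0, against 0.01 over all genes. In synoviocytes 2 were that much higher and 1 lower (2.27% and 1.85% of all genes), with a median of 0.17. In macrophages 0 of 37 were (0.131% and 0.121%), with a median of -0.05.

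In chondrocytes SLC2A1 went from 295 CPM without addition to 2754 CPM with cytokines, 9.34-fold. EPAS1 went from 285 to 1407 CPM (4.93-fold), ALDOC from 45.7 to 146 CPM (3.20-fold), ADM from 67.2 to 186 CPM (2.77-fold) and BNIP3 from 370 to 1008 CPM (2.72-fold). ANKRD37, SLC16A3, EGLN3, PFKFB3 and HIF1A were between 2.36-fold and 2.67-fold higher. The 10 genes thus included both HIF alpha subunits, a glucose carrier and a lactate carrier. LDHB (216 to 156 CPM) and P4HA1 (773 to 538 CPM) had lower values with cytokines.

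In synoviocytes SLC2A1 was also the gene with the largest fold, from 367 to 1226 CPM (3.34-fold), followed by EPAS1, from 434 to 1061 CPM (2.45-fold). EGLN3 had 9.47 CPM without addition and 4.65 CPM with cytokines, the opposite direction to chondrocytes. In macrophages SLC2A1 was at 64.6 and 64.7 CPM, EPAS1 at 16.6 and 13.1 CPM and HIF1A at 315 and 290 CPM. Macrophages without addition already had cytokine-responsive genes such as IL6 and CXCL8 at a summed 17410 CPM, against 2155 CPM in synoviocytes and 2699 CPM in chondrocytes, and with cytokines the sums were 14329, 18917 and 69679 CPM. That list was chosen after the data were seen, and its part in these values was not tested.

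With the 3 cell types as blocks, cytokines alone against no addition gave 0 called genes of the 38 and 0 of 15072 genes by edgeR, and 0 of the 38 by DESeq2, which called 0.856% of all genes. At an unadjusted p under 0.05 there were 5 of the 38, where 8.95% of all genes were. These were CA9 (log2 0.47 ± 0.13), ADM (0.85 ± 0.24), PFKFB3 (0.72 ± 0.25), BNIP3L (0.28 ± 0.11) and KDM3A (0.30 ± 0.12), none of which passed the adjustment (adjusted p = 0.551 to 0.553). Resting MSC-CM against cytokines alone gave 0 of the 38 and 0 of 15795 genes by edgeR and 0 by DESeq2, with 1 of the 38, PFKP, at an unadjusted p under 0.05 and 4.22% of all genes. In single libraries the only one of the 38 genes that was at least 2-fold away from cytokines alone was EPAS1 in macrophages, at a mean of 30.1 against 13.1 CPM. Of all genes, 1.08% were that much higher and 0.264% lower in macrophages, 0.994% and 0.28% in chondrocytes, and 0.0763% and 0.153% in synoviocytes.

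**Figure D4:**
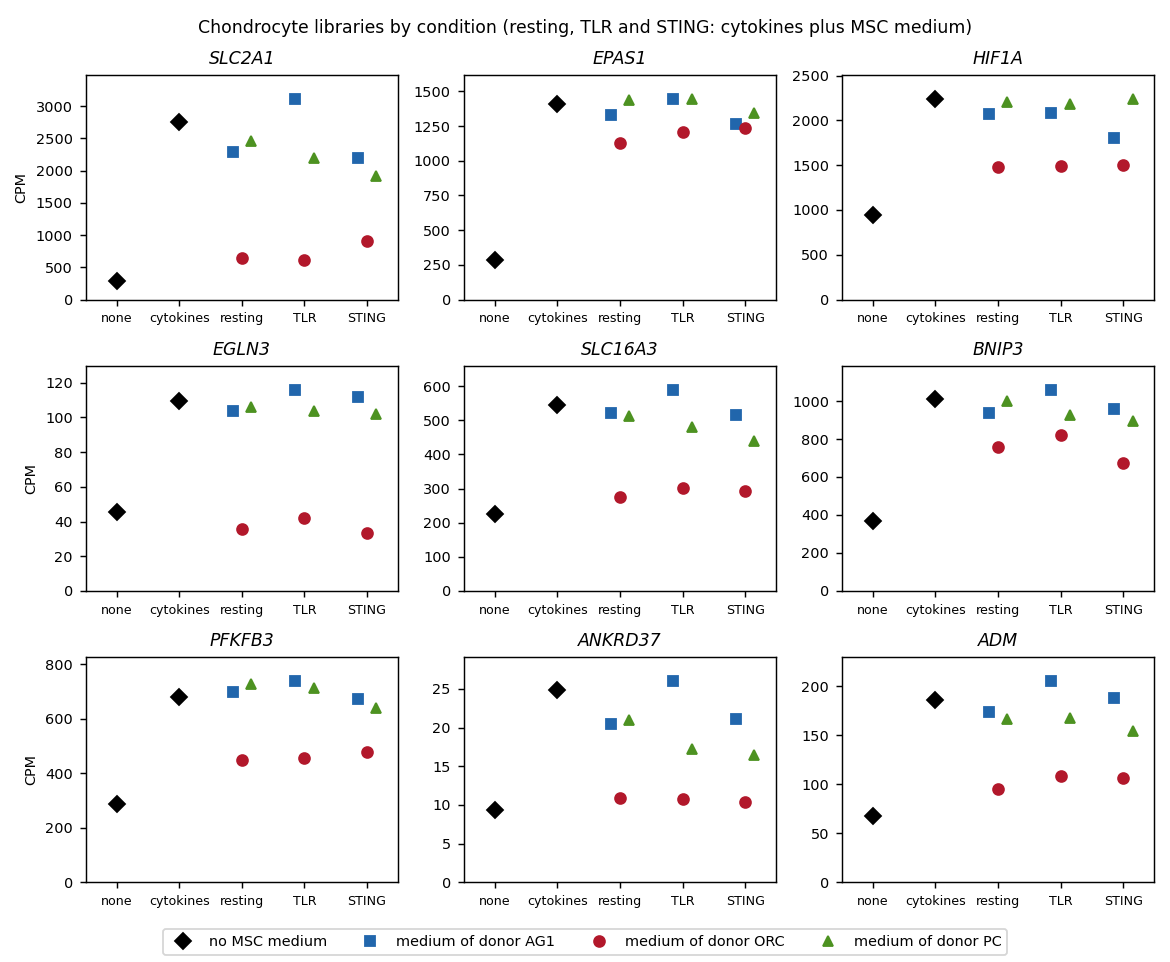
CPM (vertical axis, from 0) of 9 genes in the 11 chondrocyte libraries by condition (horizontal axis), with a symbol for the MSC donor of the medium; each point is 1 library. For SLC2A1 the libraries with CM of donor ORC lie at 621 to 913 CPM, between the 295 CPM without addition and the 1922 to 3115 CPM with CM of the other donors.

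Within chondrocytes, the libraries differed by the MSC donor of the medium. Each donor label was taken as 1 animal, so a donor's medium and anything else that its cultures shared cannot be told apart. In a fit with donor and CM group, the donor term was called for 21 of the 38 genes, where 41.3% of 14304 genes were called. Donor ORC stood apart: all 3 of its libraries were below all 6 others for 20 of the 38 genes, where 19% of all genes were, and above them for 1, DDIT4, where 18% were. Without the 3 ORC libraries the donor term was called for 0 of the 38 genes and for 33 of 13967 genes by edgeR.

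The SLC2A1 values with CM of donor ORC were 647, 621 and 913 CPM for resting, TLR and STING, against 2283, 3115 and 2201 CPM for donor AG1 and 2452, 2198 and 1922 CPM for donor PC. The mean of the 6 other libraries was 3.25-fold that of ORC, and the donor term had an adjusted p of 0.013. EGLN3 was at 35.6, 42.0 and 33.6 CPM with ORC and at 102 to 116 CPM with the other donors, a 2.89-fold ratio of means (adjusted p = 6.51e-14). With ORC medium EGLN3 was below the 45.6 CPM of the chondrocytes without addition.

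ADM (94.7 to 109 against 154 to 205 CPM, adjusted p = 4.85e-10), SLC16A3 (275 to 303 against 440 to 589 CPM, adjusted p = 6.25e-10) and PFKFB3 (448 to 478 against 640 to 737 CPM, adjusted p = 1.08e-07) showed the same separation. ANKRD37, EGLN1, HIF1A, NDRG1 and KDM3A were also lower with ORC, HIF1A at 1483 to 1507 CPM against 1808 to 2243 CPM (adjusted p = 3.1e-06). EPAS1 differed little in size, at 1128 to 1237 against 1263 to 1448 CPM (adjusted p = 0.0253). The enzymes HK2, GPI, PGK1, PGAM1, ENO1 and PDK1 had all ORC libraries below all others. HK2 was at 137 to 138 against 159 to 185 CPM (adjusted p = 6.9e-05) and PGK1 at 1107 to 1121 against 1272 to 1423 CPM (adjusted p = 0.000939). The donor term was not called for GPI and ENO1 (adjusted p = 0.240 and 0.0876). The enzymes ALDOA, GAPDH, PKM, LDHA and ENO2 overlapped between ORC and the other donors.

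Of the 10 genes that were at least 2-fold higher with cytokines in chondrocytes, 9 had all ORC libraries below all others, the exception being ALDOC. Relative to the library without addition, the median log2 value of these 10 genes was 1.43 with cytokines alone, 1.33 with CM of the other donors and 0.67 with CM of ORC. With ORC medium 9 of the 10 had a median above the library without addition, EGLN3 being the exception. These values are a description, since the 10 genes were picked from the same libraries.

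Other genes moved with the same libraries. The cytokine-responsive list summed to 16163 to 21148 CPM with ORC and 42145 to 65714 CPM with the other donors, with CXCL8 at 35.6 to 184 against 889 to 3374 CPM. Chondrocyte markers summed to 496 to 649 CPM against 160 to 247 CPM, and stromal markers to 125663 to 144993 against 76659 to 95903 CPM. Their part in the result was not tested.

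In macrophages the donor term was called for 7 of the 38 genes, where 15.7% of 15052 genes were called. HIF1A had a mean of 231 ± 20.9 CPM with CM of donor AG1, 334 ± 72.0 with ORC and 375 ± 24.5 with PC (SD, n = 3, adjusted p = 0.000833). PFKFB4 was highest with AG1, at 140 ± 7.48 CPM, against 98.1 ± 11.5 and 114 ± 10.2 CPM with ORC and PC (adjusted p = 0.00691), and its paralogue PFKFB3 was lowest there, at 287 ± 88.4 against 524 ± 114 and 373 ± 13.5 CPM (adjusted p = 0.0106). P4HA1, EGLN3, ENO1 and EGLN1 were the other genes called. Without the macrophage library with resting MSC-CM of donor AG1, 3 genes were called.

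In synoviocytes the donor term was called for 0 of the 38 genes and 0 of 14584 genes by edgeR, with 0 of the 38 at an unadjusted p under 0.05, where 2.84% of all genes were, and 0 of the 38 by DESeq2, which called 0.0206% of all genes. The synoviocyte library with resting MSC-CM of donor ORC was the lowest of the 9 for several genes, such as NDRG1 at 319 CPM against 421 to 551 CPM, and 2 of the 38 genes were called once it was left out.

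The agonist of the MSC was the main comparison of the study, both in the MSC and through their medium in joint cells. In MSC, TLR, STING and CpG against untreated and STING against TLR gave 0 of the 38 genes and 0 genes in all by edgeR. DESeq2 also gave 0 of the 38 in each, while it called 0.35% of all genes for TLR, 0.639% for STING, 0.00672% for STING against TLR and 0% for CpG. At an unadjusted p under 0.05 there were 0 of the 38 for TLR (1.13% of all genes), 1 for STING (2.06%), 0 for STING against TLR (0.208%) and 0 for CpG (0.278%). The gene was LDHB, at 391, 377 and 335 CPM untreated and 275, 269 and 271 CPM after STING in donors 92, 99 and PC (log2 -0.42 ± 0.18, adjusted p = 1). It was lower in 3 of 3 donors, but did not pass the adjustment, nor with donor as a block (adjusted p = 0.359).

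The other MSC values were close between agonists beside the spread of donors. SLC16A3 differed by log2 0.33 ± 0.30 for TLR, LDHA by 0.18 ± 0.42 and HK2 by 0.18 ± 0.46. The fit behind these values had no donor term, so each SE includes the spread between donors. SLC2A1 lay at 228 to 272 CPM untreated, 236 to 309 CPM after TLR, 179 to 319 CPM after STING and 231 to 299 CPM after CpG. These ranges overlapped. The TLR library of donor 92 had the interferon response genes that poly I:C is known to induce at a summed 94.7 CPM, against 3424 and 6693 CPM in the TLR libraries of the other donors and 102 to 109 CPM untreated, so that library did not show the response of its group.

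In joint cells no agonist comparison of the CM (TLR against resting, STING against resting and STING against TLR in each of the 3 cell types) gave a called gene, among the 38 or in all, by edgeR, and DESeq2 gave 0 of the 38 in all 9. Of all genes DESeq2 called 0.0137% for TLR in synoviocytes and, in macrophages, 0.0332% for STING and 0.219% for STING against TLR. The numbers at an unadjusted p under 0.05 in synoviocytes were 2 for TLR (9.07% of all genes), 2 for STING (6.67%) and 1 for STING against TLR (1.93%). In chondrocytes they were 0 in each (0.517%, 0.79% and 0.727%). In macrophages they were 0 for TLR (2.1%), 3 for STING (4.6%) and 3 for STING against TLR (6.42%). These fits had no donor term, so each SE includes the spread between MSC donors. The counts therefore do not cover differences within donors. With the donor as a block, ADM for TLR in chondrocytes (log2 0.14 ± 0.06, against ± 0.31 without) was at an unadjusted p under 0.05. So were LDHB, P4HA1, NDRG1, HIF1A and PFKFB3 for STING against TLR in macrophages. Among these genes only P4HA1 passed the adjustment. The interaction of CM group and cell type gave 0 called and 1 at an unadjusted p under 0.05, P4HA2 (2.29% of all genes), and 0 of the 38 by DESeq2 (0.109%).

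In synoviocytes EGLN1 stood at 70.6, 52.2 and 70.5 CPM with resting MSC-CM of donors AG1, ORC and PC, at 74.3, 86.6 and 79.1 CPM with TLR-MSC-CM and at 73.6, 81.5 and 74.0 CPM with STING-MSC-CM. The resting values were all below the others, and the difference was log2 0.30 ± 0.10 for TLR (adjusted p = 0.545) and 0.24 ± 0.10 for STING (adjusted p = 0.676). P4HA2 for TLR (-0.23 ± 0.09, adjusted p = 0.545) and PFKFB4 for STING (0.49 ± 0.19, adjusted p = 0.676) also failed the adjustment.

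In macrophages SLC2A1 was at 127, 77.6 and 133 CPM with resting, 132, 127 and 92.4 CPM with TLR and 86.8, 68.3 and 75.5 CPM with STING-MSC-CM, in the order AG1, ORC and PC. All STING values were below all TLR values, with a log2 difference of -0.61 ± 0.21, and the difference did not pass (adjusted p = 0.728). ENO2 (-0.41 ± 0.12, adjusted p = 0.714) and P4HA2 (-0.32 ± 0.10, adjusted p = 0.727) were likewise below TLR in 3 of 3 donors without passing. With the MSC donor as a block, P4HA1 alone was called for STING against TLR in macrophages, at log2 0.37 ± 0.08 (adjusted p = 0.0403, edgeR), higher in 3 of 3 donors, where 2.74% of all genes were called in that fit.

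MSC of different donors differed for most of the genes. The donor term, fitted with the agonist as a second term over 12 libraries, was called for 32 of the 38, where 55.8% of 15099 genes were called. The 6 genes without a call were PFKFB3, HK2, P4HA1, ALDOA, LDHB and BNIP3L. EPAS1 had a mean of 55.3 ± 2.78 CPM in donor 92, 217 ± 58.5 CPM in donor 99 and 256 ± 19.5 CPM in donor PC (SD, n = 4, adjusted p = 5.11e-06). CA9 was in the same order, at 18.7 ± 2.93, 48.8 ± 8.53 and 76.1 ± 18.7 CPM (adjusted p = 5.38e-06), and ADM in the reverse order, at 206 ± 24.9, 122 ± 40.7 and 47.5 ± 9.32 CPM (adjusted p = 5.81e-06). The direction thus depended on the gene, also among genes known as HIF targets.

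Donor 92 had all 4 libraries above all 8 others for 8 of the 38 genes (11.3% of all genes), namely SLC2A1, HK1, PFKL, PFKP, PGAM1, PDK1, ADM and P4HA2, and below them for 6 (12%), namely PFKM, ENO2, EPAS1, EGLN3, CA9 and DDIT4. Donor 99 was above for 6 (5.43%), which included ALDOC, ENO2, EGLN3 and NDRG1. Donor PC was below for 9 (7.29%), among them GPI, TPI1, GAPDH, PGK1, PGAM1, PKM and LDHA, enzymes of the chain from glucose to lactate. LDHA, for example, lay at 1308 to 1584 CPM in PC against 1792 to 3370 CPM in the other donors (adjusted p = 0.00104). Proliferation genes moved with the same donors, at a summed 508 to 1365 CPM in donor 92, 370 to 808 CPM in 99 and 171 to 214 CPM in PC, and their part in the result was not tested.

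**Figure D5:**
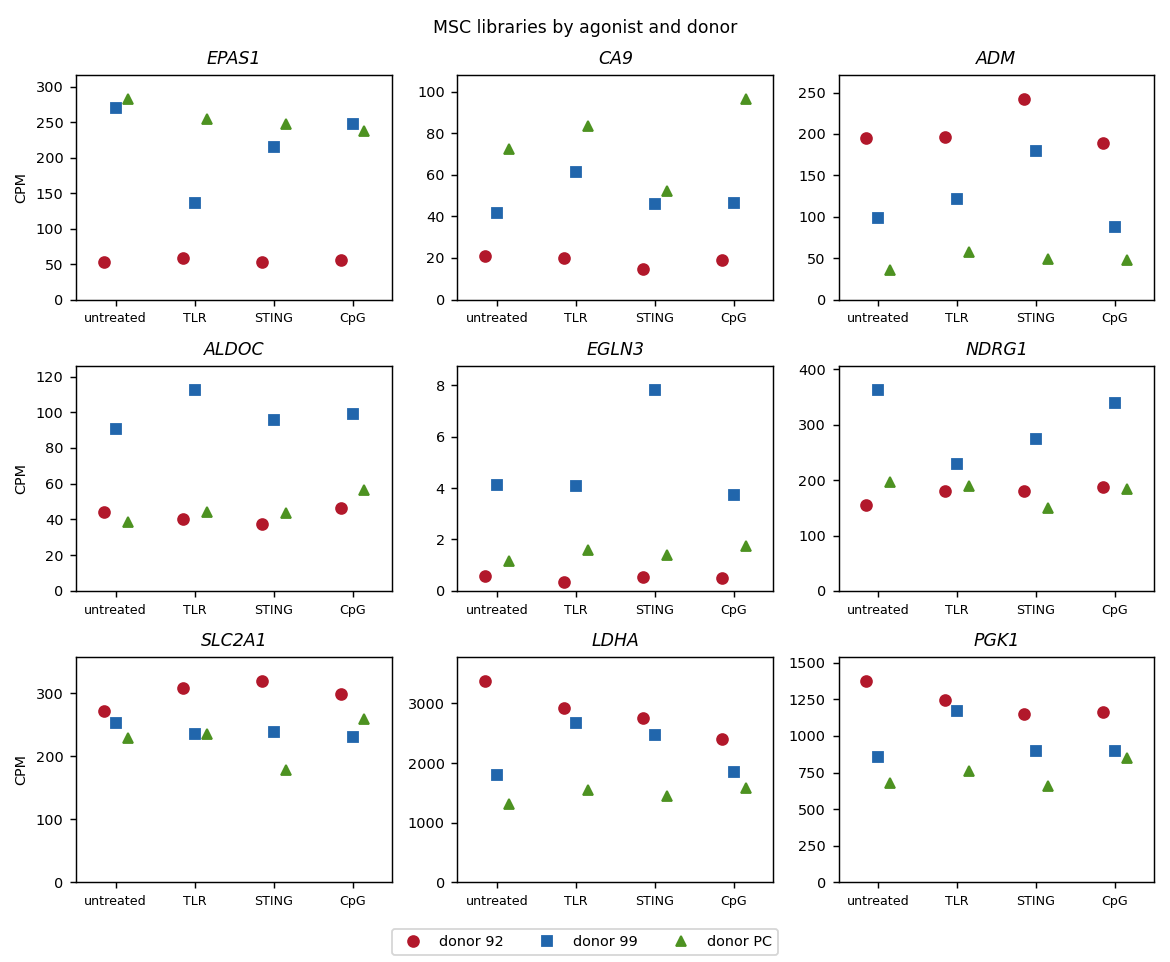
CPM (vertical axis, from 0) of 9 genes in the 12 MSC libraries by agonist (horizontal axis), with a symbol for each donor; each point is 1 library. Points of 1 donor lie together across agonists, as for EPAS1, where donor 92 is at 52.7 to 58.9 CPM and the other donors at 137 to 284 CPM.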

How the data were processed

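The authors trimmed reads with Cutadapt 1.12, aligned them with STAR to the horse genome EquCab3.0, counted reads per gene with HTSeq 0.11.0 and kept protein-coding genes; they deposited raw counts, 1 table for 12 MSC libraries and 1 for 33 joint cell libraries, and ran DESeq2 in their own analysis. In the deposited counts, the 40 highest values, in 6 genes and none of the 38, were rounded to 3 digits. Doses of agonists and cytokines differ between the labels and the methods and are not printed. Levels are CPM scaled by TMM within each table, so they are not compared between tables, nor between genes, since no lengths were used. Genes reaching 10 counts in all over the samples compared entered edgeR 4.0.16 (R 4.3.3) quasi-likelihood tests, with adjusted p under 0.05 as the threshold, and the tests were tried on simulated counts. DESeq2 1.42.0, other filters, no TMM factors, single libraries left out and a block for MSC donor were alternatives. Single-library folds used log2(CPM + 0.1). Members and lists were chosen with earlier results of these data known. The text names called genes (up to 20 per comparison by p) and otherwise up to 5 with the smallest p. Each donor label was taken as 1 animal, so the samples are paired by donor. Same-donor deviations correlated with a median r of 0.831 for MSC, 0.0664 for synoviocytes, 0.676 for chondrocytes and 0.443 for macrophages. Several glycolytic genes, GAPDH among them, have processed pseudogenes in mammals, and reads shared with such copies were not examined. Intervals of counting error are not given, and the floor of 3 counts covers counting error only.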

Additional observations from a re-analysis of the deposited data

Results flagged for a closer look

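For 7 of the 10 genes that were at least 2-fold higher with cytokines alone in chondrocytes, another joint cell type had a log2 change of opposite sign. The difference between cell types was not tested, because each value rests on 1 library per condition. In macrophages the log2 change was -0.045 for SLC16A3, -0.22 for ALDOC, -0.12 for HIF1A, -0.33 for EPAS1, -0.27 for BNIP3 and -0.055 for ANKRD37, against 1.28, 1.68, 1.24, 2.30, 1.45 and 1.42 in chondrocytes. In synoviocytes EGLN3 changed by -1.03, against 1.27 in chondrocytes. Most of the macrophage values are close to 0.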

How the results depend on the processing

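Of the alternatives to the counts of called genes among the 38 and of gene pairs whose ratios did not overlap, 302 stayed within 1.5 times of the value in the text and 7 did not. With the replicate block for MSC donor, STING-MSC-CM against TLR-MSC-CM in macrophages gave 1 gene in place of 0 (P4HA1), and the pairing changed no other count by over 1.5 times (chondrocytes against synoviocytes 13 in place of 10). For chondrocytes against synoviocytes, DESeq2 gave 16 genes, leaving out the CM of donor ORC in both cell types 16, and single libraries left out 8 to 16, the highest without the chondrocyte library with resting MSC-CM of donor ORC. The donor term in chondrocytes gave 0 without donor ORC and 15 to 21 with single libraries left out, that in synoviocytes 0 to 2, and that in macrophages 3 to 8. The alternatives with donor ORC left out or without TMM factors were chosen after the data were seen. Among named genes 11 values lost their call and 1 gained one. With single libraries left out, the uncalled log2 values of TLR-MSC-CM against resting MSC-CM in chondrocytes ranged from -0.086 to 0.36 for ADM, -0.016 to 0.15 for EPAS1 and -0.0016 to 0.20 for DDIT4, and P4HA1 for STING against TLR from -0.27 to 0.025. Groups held 3 libraries, or 1 for cytokines alone and no addition, and whether depth or the number of libraries limited these comparisons was not tested.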
